A study of Mus musculus with 6 samples.

Results

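Cholesterol is built from acetyl-CoA in a chain of enzymatic steps, and 8 genes of that pathway were followed across the cells of the mouse small intestinal mucosa. The genes were Hmgcs1, Idi1, Fdps, Fdft1, Sqle, Lss and Cyp51, which encode enzymes, and Insig1, which encodes a regulator. They were found by symbol and all 8 of 8 were present among the 32285 features of the count tables.

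Single cells of 3 control littermates and 3 IE-HuR-/- mice were sequenced as 1 droplet library per animal. The IE-HuR-/- mice carry floxed HuR alleles and villin-Cre, which deletes HuR, an RNA-binding protein encoded by Elavl1, in intestinal epithelial cells, and the controls were HuRfl/fl littermates without Cre. All were 6- to 8-wk-old mice of the C57BL/6 background, the labels call the controls wild-type, and the labels give normal feeding and drinking whereas the methods state that food was withheld before experiments. The samples are labelled small intestinal epithelium, yet 4964 cells carried T or NK cell markers and 1282 carried erythroid markers.

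The pathway begins with the condensation of acetyl-CoA units to HMG-CoA and passes through mevalonate, isoprenoid diphosphates and squalene to lanosterol and cholesterol. When sterols fall in the endoplasmic reticulum, SCAP carries the SREBP transcription factors to the Golgi, where they are cleaved and then switch on most genes of the pathway. INSIG proteins hold SCAP back when sterols are plentiful. Enterocytes of the small intestine absorb cholesterol from diet and bile, can make it themselves, and export it in chylomicrons.

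Each gene was placed on GRCm38 by its Ensembl identifier in the GENCODE annotation. Hmgcs1 (ENSMUSG00000093930), the cytosolic HMG-CoA synthase, lies at chr13:119690379-119708260 on the plus strand, and Idi1 (ENSMUSG00000058258), which isomerises isopentenyl diphosphate, at chr13:8885501-8892451 on the plus strand. Fdps (ENSMUSG00000059743), farnesyl diphosphate synthase, lies at chr3:89093588-89101959 on the minus strand, and Fdft1 (ENSMUSG00000021273), squalene synthase, at chr14:63145150-63179578 on the minus strand. Sqle (ENSMUSG00000022351), squalene epoxidase and a rate-limiting step of the later pathway, lies at chr15:59315077-59331192 on the plus strand. Lss (ENSMUSG00000033105), lanosterol synthase, lies at chr10:76531588-76557138 on the plus strand, Cyp51 (ENSMUSG00000001467), lanosterol demethylase, at chr5:4081145-4104746 on the minus strand, and Insig1 (ENSMUSG00000045294) at chr5:28071363-28078662 on the plus strand.

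RefSeq promoter windows of GRCm38.p6, from 250 bases before to 50 bases after the annotated start, were matched by symbol for 5 of the 8 genes. The windows of Hmgcs1 (chr13:119690101-119690400, plus strand) and Insig1 (chr5:28071162-28071461, plus strand) are printed because Hmgcs1 followed the other enzymes across cell classes and Insig1 did not, as described below. Capitals mark CACNCCAC, a core of the sterol regulatory element bound by SREBPs, and CCAAT, both searched on either strand.
Hmgcs1: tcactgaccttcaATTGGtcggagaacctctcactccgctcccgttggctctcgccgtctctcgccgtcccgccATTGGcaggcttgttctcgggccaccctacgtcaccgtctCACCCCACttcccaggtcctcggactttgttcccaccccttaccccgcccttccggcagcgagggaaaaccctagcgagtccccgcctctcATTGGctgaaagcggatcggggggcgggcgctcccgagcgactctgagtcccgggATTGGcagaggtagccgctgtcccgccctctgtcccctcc
Insig1: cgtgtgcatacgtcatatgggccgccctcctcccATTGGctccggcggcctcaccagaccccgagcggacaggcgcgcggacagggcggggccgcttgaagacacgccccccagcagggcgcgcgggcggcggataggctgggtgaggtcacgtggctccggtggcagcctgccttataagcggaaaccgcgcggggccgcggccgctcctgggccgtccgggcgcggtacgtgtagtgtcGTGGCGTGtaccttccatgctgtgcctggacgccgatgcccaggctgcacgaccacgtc
CACNCCAC was found in the Hmgcs1 and the Insig1 window and not in those of Idi1, Lss and Cyp51, and 6.24% of 32851 promoter windows of the same length held it. The longer TCACNCCAC, which contains CACNCCAC, was found in the Hmgcs1 window and in 1.24% of all windows. CCAAT was present in all 5 windows and in 37.4% of all windows, and the GC box GGGCGG, not capitalised, was likewise in all 5 and in 35.7% of all. These matches describe letters and not binding.

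The 6 libraries held 60706 barcodes with 59518012 to 91818560 UMIs (unique molecular identifiers, 1 per captured RNA molecule) per library, and 60431 cells with at least 200 genes were kept. Cells were assigned to classes by gates on marker genes, 38876 passed 1 gate, 21515 passed none and 40 passed more than 1 and were left out. Between any pair of libraries 22 to 44 barcodes were shared. UMIs were summed per library and class, and a level is given as CPM, the UMIs of a gene per 1000000 UMIs of that class in that library. Elavl1 was at 28.8, 31.4 and 28.9 CPM in enterocyte-like cells of the control libraries and at 29.9, 30.3 and 30.9 CPM in those labelled IE-HuR-/-. There its RNA was not lower but called higher with TMM scaling (log2 fold change 0.23, edgeR adjusted p = 0.00022). Without TMM it was not called (0.03, adjusted p = 0.614), and directions rest on the labels. Nothing in the labels names a batch, and in these sums fewer expressing cells cannot be told apart from less RNA per cell.

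Enterocyte-like cells numbered 30593, and all 15 of 15 enterocyte markers were at least 2-fold higher in them than in the remaining cells. Progenitor-like cells were 242 cells gated on cycling markers and at least 2 epithelial markers. There were 15 to 42 per control library and 47 to 57 per library labelled IE-HuR-/-, with 25 of 25 cycling markers at least 2-fold higher. The gates used these same enterocyte and cycling markers, so both counts follow from the gating. Of 7 stem cell markers, which the gate did not use, 3 were at least 2-fold higher in progenitor-like cells, and Olfm4 was at 792 to 1820 CPM there. Of 10 epithelial markers 1 was at least 2-fold higher in progenitor-like cells. The 10 summed to 11590 CPM there against 14150 CPM in the remaining cells, which include enterocyte-like cells. The gates also gave 971 goblet-like, 144 tuft-like, 259 enteroendocrine-like, 4964 T or NK-like, 147 myeloid-like and 1282 erythroid-like cells. Enterocyte-like cells had a median of 2040 UMIs, goblet-like cells of 18914 and tuft-like cells of 18373. Per library the enterocyte-like median was 3014, 1323 and 1344 UMIs in control replicates 1 to 3. It was 2740, 3086 and 2868 UMIs in the libraries labelled IE-HuR-/-, and the part of this depth in the label differences was not tested.

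In enterocyte-like cells the 7 enzyme genes had lower mean levels than in tuft-like, goblet-like, enteroendocrine-like, T or NK-like, progenitor-like and myeloid-like cells. Summed over the 8 genes, the level was 207 ± 9.74 CPM (SD, n = 6 libraries) in enterocyte-like, 549 ± 101 in progenitor-like, 746 ± 86.9 in goblet-like, 667 ± 75.8 in enteroendocrine-like, 699 ± 25.9 in T or NK-like and 1730 ± 238 CPM in tuft-like cells. Erythroid-like cells had 48.2 ± 20.1 CPM, and for each of the 8 genes their range lay below that of enterocyte-like cells. The 5 erythroid markers, mostly globins, summed to 770300 CPM there, which lowers the CPM of every other gene. These levels therefore cannot serve as a background for the other classes. Paneth-like, B or plasma-like and fibroblast-like cells gave 55, 133 and 109 UMIs of the 8 genes in all and were not ranked. Their summed levels were 92.6 ± 40.2, 259 ± 96.5 and 125 ± 32.6 CPM. Markers of the own class summed to 517500 CPM in Paneth-like, 261900 in goblet-like and 151500 CPM in enteroendocrine-like cells. This lowers the CPM of other genes in those classes as well.

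**Figure D1:**
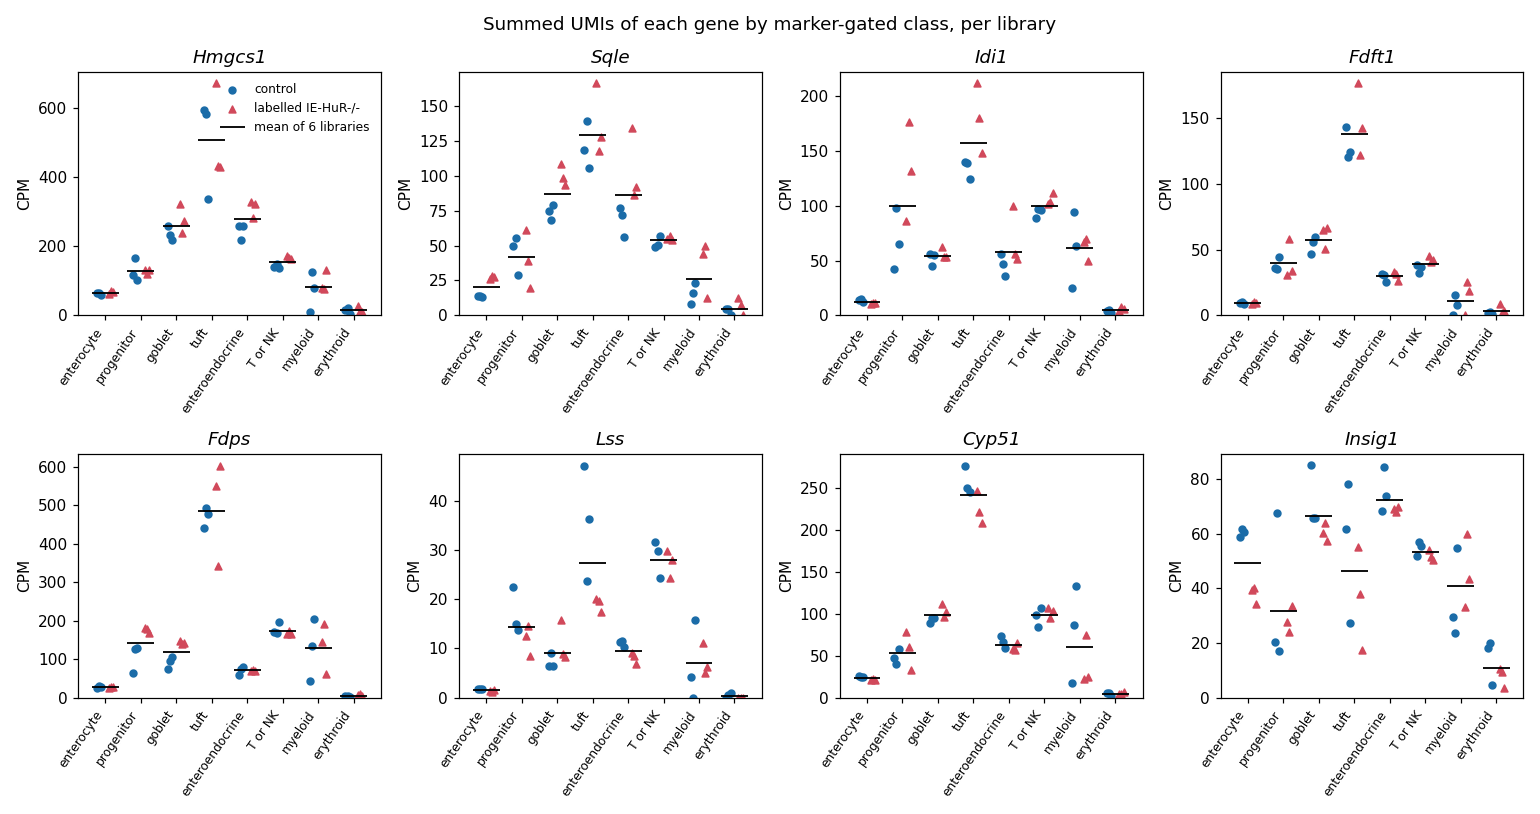
Level (CPM, vertical axis from 0) of each of the 8 genes in 8 marker-gated classes, with 1 point per library (circles, control; triangles, labelled IE-HuR-/-) and a bar at the mean of 6 libraries. Tuft-like cells have the highest mean for 6 genes, enterocyte-like cells are above only the erythroid-like cells for the 7 enzymes, and Insig1 does not follow this order.

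The first enzyme of the set, Hmgcs1, had its highest level in tuft-like cells at 507 ± 127 CPM (SD, n = 6), above the range of every other class ranked. Enteroendocrine-like cells at 277 ± 42.1 and goblet-like cells at 257 ± 37.7 CPM followed with overlapping ranges, then T or NK-like cells at 153.5 ± 14.6 and progenitor-like cells at 127.5 ± 21.4 CPM, whose ranges also overlapped. Enterocyte-like cells had 64.3 ± 4.19 CPM, below the progenitor-like range of 102.6 to 165.4 CPM. Fdps was arranged differently below its tuft-like level of 484 ± 90.4 CPM, since T or NK-like cells at 172.8 ± 11.9, progenitor-like cells at 141 ± 44.6, myeloid-like cells at 129 ± 65.7 and goblet-like cells at 117 ± 30.0 CPM each overlapped the next in this order. For Idi1 the tuft-like range (157 ± 32.4 CPM) overlapped the progenitor-like one (99.8 ± 48.0 CPM), which overlapped that of T or NK-like cells (99.7 ± 7.69 CPM).

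For the squalene steps the tuft-like levels were 138 ± 21.3 CPM for Fdft1, above every other class ranked, and 129 ± 21.2 CPM for Sqle, which overlapped the goblet-like range of 68.6 to 108.5 CPM. Lss did not have its highest mean in tuft-like cells. It was at 28.0 ± 3.09 CPM in T or NK-like and 27.4 ± 11.8 CPM in tuft-like cells with overlapping ranges, and at 1.57 ± 0.281 CPM in enterocyte-like cells. Cyp51 was at 241 ± 23.8 CPM in tuft-like cells and at 99.1 ± 8.76 and 98.1 ± 8.01 CPM in T or NK-like and goblet-like cells, and the ranges of these 2 classes overlapped.

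Insig1 stood apart from the enzymes. Its mean was 72.4 ± 6.37 CPM in enteroendocrine-like, 66.5 ± 9.76 in goblet-like, 53.5 ± 2.63 in T or NK-like, 49.2 ± 12.5 in enterocyte-like, 46.3 ± 22.9 in tuft-like and 31.7 ± 18.5 CPM in progenitor-like cells, and from T or NK-like cells downward each range overlapped the next. Over the 24 sums of enterocyte-, progenitor-, goblet- and T or NK-like cells, the correlation of each enzyme's log2(CPM + 1) with the mean of the remaining genes, each standardised, was between 0.782 for Lss and 0.937 for Cyp51, and 0.114 for Insig1. These sums share 6 libraries and their depth, so the correlations are a description.

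Of 5833 genes with a mean of at least 20 CPM, those most like the mean profile of the 8 genes over the same 24 sums were Zfp664 (Pearson r = 0.955), Slc50a1 (r = 0.951), Dpysl2 (r = 0.948), Pdia3 (r = 0.948) and R3hdm4 (r = 0.942), followed by Slc38a2, Sh3bgrl3, Tmem248 and Itga2 with r from 0.93 to 0.921. Of the other genes of the pathway that passed this level, Srebf2, which encodes the SREBP that acts mainly on cholesterol genes, ranked 54 with r = 0.819.

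Tuft-like cells, a rare chemosensory secretory type, had the largest summed level, and 7 of the 8 genes were higher in them than in enterocyte-like cells of the same libraries while Insig1 was lower. Of 11397 genes tested, 61.3% were called in this comparison, so a call by itself sets the 8 genes little apart. Their median log2 fold change was 2.91, against -0.12 over all genes tested. Fdps was at a lowest of 340.8, a median of 485 and a highest of 602.6 CPM in tuft-like cells and at 24.4, 26.5 and 30.3 CPM in enterocyte-like cells, with no overlap between the classes. Its log2 fold change was 3.56 (standard error, SE, 0.147, edgeR adjusted p = 1.96e-16), and those of Lss (3.54), Fdft1 (3.26), Idi1 (3.05), Cyp51 (2.78), Hmgcs1 (2.34) and Sqle (2.13) were also called. Insig1 differed by -0.65 on the log2 scale (edgeR adjusted p = 0.00353), and by -0.09 without TMM scaling (adjusted p = 0.681), when the median over all genes was 0.45 and 68.3% in place of 45.3% of all calls were higher. There were 13 to 38 tuft-like cells per library, and enterocyte markers in them summed to 18102 to 36185 CPM against 86166 to 93594 CPM in enterocyte-like cells, whose part in these values was not tested.

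Epithelial progenitors divide in the crypt and give rise to enterocytes. In progenitor-like against enterocyte-like cells 4 enzymes, Lss, Idi1, Fdps and Fdft1, were higher while Insig1 was lower. Hmgcs1, Sqle and Cyp51 did not pass the test. The fit kept the library as a block and scaled the sums by TMM, which sets the typical gene near 0. Of 11674 genes tested, 74.5% were called, 44.9% of these higher in progenitor-like cells, and the median log2 fold change was 0.75 over the 8 genes and -0.21 over all genes tested. Without TMM, all 8 genes were called, 7 higher and Insig1 lower, the median over all genes was 0.67, and 67.8% of all calls were higher.

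Lss was at a lowest of 8.38, a median of 14.1 and a highest of 22.5 CPM in progenitor-like cells, from 42 UMIs in all (14.4 CPM when pooled, 95% Poisson interval 10.4 to 19.4, counting error only). In enterocyte-like cells the same libraries had 1.17, 1.63 and 1.85 CPM. The classes did not overlap, and the log2 fold change was 2.32 (SE 0.323, edgeR adjusted p = 2.1e-06).

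Idi1 was at 42.7, 91.9 and 176.3 CPM (lowest, median, highest) in progenitor-like and at 10.5, 12.04 and 14.5 CPM in enterocyte-like cells, a log2 fold change of 2.05 (SE 0.207, edgeR adjusted p = 9.25e-08). Fdps was at 65.2, 147.9 and 181.9 CPM against 24.4, 26.5 and 30.3 CPM, a log2 fold change of 1.48 (SE 0.155, edgeR adjusted p = 4.54e-08). For both genes the lowest progenitor-like value, in control replicate 1, was above the highest enterocyte-like value. Fdft1 was at 30.6, 35.5 and 58.0 CPM against 8.37, 9.42 and 10.1 CPM, again without overlap, and its log2 fold change was 1.18 (SE 0.184, edgeR adjusted p = 8.66e-06).

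The genes that were not called were also at higher mean CPM in progenitor-like cells. Hmgcs1 had 102.6 to 165.4 CPM against 58.0 to 69.8 CPM, with a log2 fold change of 0.09 (SE 0.142) under TMM and 0.99 without it. Cyp51 had 33.5 to 77.8 against 20.5 to 26.0 CPM, with 0.32 (SE 0.174) and 1.21. Sqle had 19.5 to 61.1 against 13.5 to 28.0 CPM, overlapping ranges, with 0.22 (SE 0.288) and 1.12. Under gates with 2 times the marker share these 3 genes were called higher as well, at 0.68, 1.01 and 1.08, and without replicate 3 labelled IE-HuR-/- so were Cyp51 (0.46, adjusted p = 0.0344) and Sqle (0.50, adjusted p = 0.0497).

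Insig1 was at a lowest of 17.1, a median of 26.0 and a highest of 67.7 CPM in progenitor-like cells and at 34.3, 49.5 and 61.6 CPM in enterocyte-like cells. The value of control replicate 2 was the high one, and the others lay below the enterocyte-like range. The log2 fold change was -1.56 (SE 0.22, edgeR adjusted p = 2.88e-06), and against tip-gene-low enterocyte-like cells alone it was -0.43 (adjusted p = 0.0829). Within the control libraries Lss, Idi1, Fdps and Fdft1 were at log2 fold changes of 2.45, 1.52, 1.16 and 1.27, and within those labelled IE-HuR-/- at 2.12, 2.45, 1.71 and 1.03. Enterocyte markers summed to 3399 to 8665 CPM in the progenitor-like cells of the control libraries and to 8434 to 17461 CPM in those of the others. Goblet markers summed to 9606 CPM in the 15 progenitor-like cells of control replicate 3 and to 674.1 to 1534 CPM in the other 5 libraries, and without that library Lss, Idi1, Fdps and Fdft1 were called higher and Insig1 lower as before. T or NK markers, which the gate limits to 0.5% of a cell's UMIs, summed to 30.8 to 541.4 CPM. Ptprc, which marks blood-derived cells, was at 3.42 CPM in control replicate 3 and at 57.65 to 111.1 CPM in the progenitor-like cells of the other 5 libraries, against 4.49 to 8.74 CPM in enterocyte-like cells. The part of these markers in the result was not tested.

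**Figure D2:**
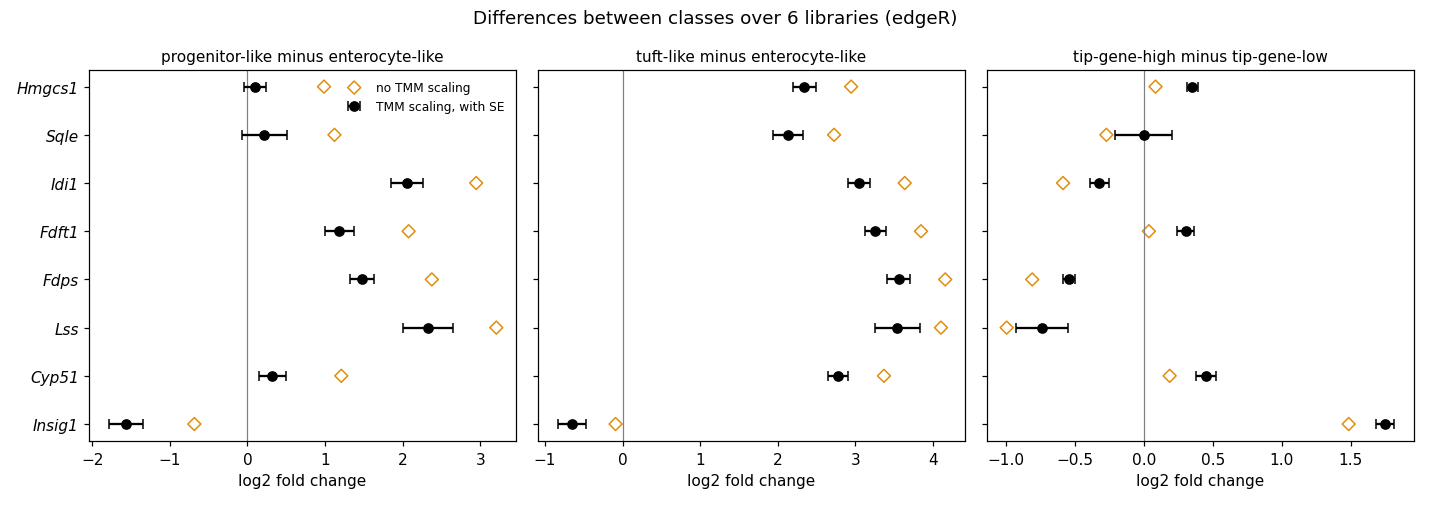
Log2 fold changes of the 8 genes (horizontal axis) between progenitor-like and enterocyte-like cells, between tuft-like and enterocyte-like cells, and between tip-gene-high and tip-gene-low enterocyte-like cells, each over 6 libraries. Black points with bars give the TMM-scaled estimate and its SE and open diamonds the estimate without TMM, which lies to the right in the first 2 panels and to the left in the last. Insig1 is on the opposite side from the enzymes in the first 2 panels and farthest to the right in the last.

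Other genes of cholesterol and lipid metabolism were counted from 6 lists of 60 genes in all. Of 57 tested, 51 were called between progenitor-like and enterocyte-like cells, where 74.5% of all 11674 genes tested were. Of 12 other sterol synthesis enzymes 5 were higher and 5 lower in progenitor-like cells, and of 6 other sterol-responsive genes 5 were higher and 1 lower, with a median log2 fold change of 2.29. The fatty acid desaturase Fads2 was at 72.6 to 146.1 CPM in progenitor-like and 0.621 to 1.29 CPM in enterocyte-like cells, a log2 fold change of 5.93. Of 8 tested genes of fatty acid synthesis 5 were higher, among them Fasn, the fatty acid synthase, at 4.05, and 3 were lower. Of 13 tested genes of cholesterol uptake, efflux and esterification 11 were lower and 2 higher, with a median of -3.23, and Npc1l1, the importer of intestinal cholesterol, was at 761.5 to 880.5 CPM in enterocyte-like and 38.6 to 133.3 CPM in progenitor-like cells (log2 fold change -4.51). Of 9 genes of sterol sensing and SREBP processing 2 were higher and 4 lower, Insig2, the paralog of Insig1, by the most at -2.99. Of 9 genes of the non-sterol isoprenoid branch 5 were higher and 3 lower, with the ubiquinone synthesis gene Coq2 at 2.55. Without TMM the calls were 7 higher and 3 lower for the other sterol synthesis enzymes, 5 and 2 for sterol sensing and 6 and 1 for the isoprenoid branch, 5 and 0 for the other sterol-responsive genes, 5 and 2 for fatty acid synthesis, and still 2 and 11 for uptake, efflux and esterification.

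Enterocytes mature as they move from the crypt to the villus tip. Enterocyte-like cells were therefore split at the median share of UMIs, 0.412%, taken by 10 tip genes that include none of the 8, and 2640 of 30593 cells lay within 10% of that value. The tip genes include Fos and Cdkn1a. In tip-gene-high against tip-gene-low cells Insig1, Cyp51, Hmgcs1 and Fdft1 were higher and Lss, Fdps and Idi1 lower, so that 7 of 8 were called, where 76.4% of 11429 genes were called. The median log2 fold change was 0.15 over the 8 genes and -0.04 over all. Without TMM the median over all genes was -0.30, 31.1% in place of 47.7% of calls were higher, and Fdft1 (0.04) and Cyp51 (0.19) were no longer called.

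Insig1 had the largest difference of the 8. In tip-gene-low cells it was at a lowest of 17.7, a median of 24.97 and a highest of 36.4 CPM, and in tip-gene-high cells at 47.4, 73.2 and 93.4 CPM. The ranges did not overlap, and the log2 fold change was 1.75 (SE 0.0672, edgeR adjusted p = 3.95e-10). Cyp51 was at 21.1, 21.6 and 23.1 against 19.1, 25.8 and 30.4 CPM, an overlap, with a log2 difference of 0.45 (edgeR adjusted p = 0.000109). Hmgcs1 and Fdft1 had log2 fold changes of 0.35 and 0.30.

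The 3 genes that were lower in tip-gene-high cells were among the 4 that were higher in progenitor-like cells. Of all genes tested, 74.5% were called in the progenitor-like and 76.4% in the tip comparison. The share of all genes with this pair of directions is not given here. Fdps was at 29.1, 35.0 and 37.0 CPM in tip-gene-low and at 17.7, 19.3 and 22.9 CPM in tip-gene-high cells, with no overlap and a log2 fold change of -0.54 (SE 0.0463, edgeR adjusted p = 3.76e-07). Lss was at 1.60, 2.08 and 2.58 against 0.608, 1.16 and 1.46 CPM, with a log2 fold change of -0.74 (SE 0.189, edgeR adjusted p = 0.00348). Idi1 was at 13.05, 15.2 and 16.9 against 7.96, 9.93 and 11.9 CPM, with a log2 fold change of -0.32 (SE 0.0676, edgeR adjusted p = 0.00089). Both comparisons hold tip-gene-low cells of the same libraries, so their values are not independent of each other.

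**Figure D3:**
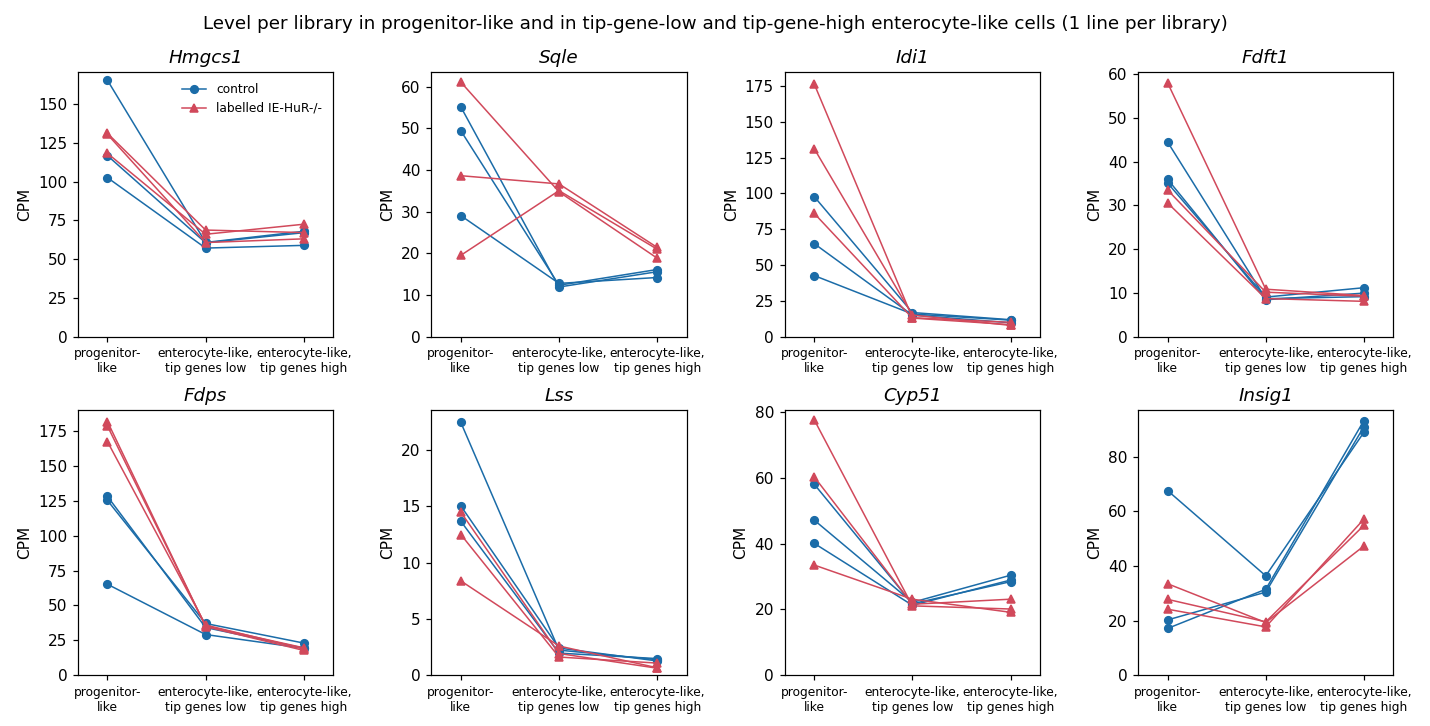
Level (CPM, vertical axis from 0) of each gene in progenitor-like, tip-gene-low enterocyte-like and tip-gene-high enterocyte-like cells, with 1 line per library (circles, control; triangles, labelled IE-HuR-/-). Idi1, Fdps and Lss fall at both steps, Insig1 is highest in tip-gene-high cells, and for Sqle the lines of the labels run in opposite directions between the enterocyte-like ranges.

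Of 56 tested genes of the lists 40 were called between the tip ranges, where 76.4% of all 11429 genes tested were. Among the listed genes, 5 of 5 tested other sterol-responsive genes were lower in tip-gene-high cells, with a median of -1.27, among them Fads2 at -1.93 and Tmem97, a sterol-binding membrane protein, at -1.68. Other sterol synthesis enzymes split into 4 higher and 6 lower of 12, with Msmo1 at 0.92 and Dhcr7, which makes cholesterol in the last step, at -1.18. Insig2, like Insig1, was higher at 1.59. Of 13 tested genes of uptake, efflux and esterification 6 were higher and 3 lower, and the lysosomal cholesterol transporter Npc1 had a log2 fold change of 2.70. Acsl3, an acyl-CoA synthetase, had 4.38. Without TMM the other sterol synthesis enzymes split into 2 higher and 8 lower and the genes of uptake, efflux and esterification into 6 and 6, while 5 of 5 other sterol-responsive genes were still lower.

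Between the labels, Sqle had the largest difference of the 8 genes in enterocyte-like cells. It was at 14.1, 13.7 and 13.5 CPM in control replicates 1 to 3 and at 25.8, 28.0 and 27.5 CPM in the libraries labelled IE-HuR-/-. Every library labelled IE-HuR-/- was thus above every control library. The log2 fold change was 1.18 (SE 0.0542, edgeR adjusted p = 2.47e-17), or 2.26-fold. Insig1 was lower, at 59.0, 61.6 and 60.8 CPM in the control libraries and 39.4, 40.1 and 34.3 CPM in the others, again without overlap. Its log2 fold change was -0.47 (SE 0.0547, edgeR adjusted p = 1.29e-07).

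In all, 4 of 8 genes were called in enterocyte-like cells, 3 higher and 1 lower, where 58.1% of 12657 genes were called. The median log2 fold change was 0.04 over the 8 genes and -0.01 over all genes tested. Hmgcs1 was at 63.7, 64.3 and 58.0 CPM in the control libraries and 62.1, 69.8 and 67.95 CPM in the others, with overlap and a log2 difference of 0.30 (edgeR adjusted p = 4.89e-06). Fdft1 had 0.19 (edgeR adjusted p = 0.0228), at 9.16, 10.1 and 8.91 CPM against 8.37, 10.0 and 9.68 CPM, also with overlap, and was not called without control replicate 1 (0.15, adjusted p = 0.0992), control replicate 3 (0.14, 0.125), or replicates 2 (0.14, 0.147) or 3 (0.18, 0.0703) labelled IE-HuR-/-.

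The remaining 4 genes were not called. Idi1 was at 13.9, 14.5 and 12.6 against 10.5, 11.5 and 11.3 CPM, Cyp51 at 26.0, 24.9 and 24.9 against 20.5, 22.4 and 21.0 CPM, and Lss at 1.82, 1.85 and 1.72 against 1.30, 1.17 and 1.54 CPM. For these 3 genes all libraries labelled IE-HuR-/- had lower CPM than all control libraries, while the TMM-scaled log2 fold changes were -0.10, -0.05 and -0.23. These CPM are not TMM-scaled, and without TMM the median over all genes was lower too, as given below. The share of all genes with such a separation is not given here. Fdps had 0.13 with overlapping libraries. Without single libraries 2 of these genes were called, Fdps at 0.19 without control replicate 2 (adjusted p = 0.0109) and Idi1 at -0.18 without control replicate 3 (adjusted p = 0.029). Without TMM the median over all genes was -0.21, 22.9% in place of 50.9% of all calls were higher, Idi1 (-0.30), Cyp51 (-0.25) and Lss (-0.42) were called lower, Hmgcs1 (0.10) was not called, and Fdps (-0.07) and Fdft1 (-0.01) turned sign. Sqle (0.98) and Insig1 (-0.67) were called either way.

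Lower villus and tip markers were both higher in the same cells of the libraries labelled IE-HuR-/-. The summed level of 7 lower villus markers, among them Reg3b and Reg3g, was 5076 to 5868 CPM in enterocyte-like cells of the control libraries and 14185 to 15673 CPM in those labelled IE-HuR-/-, and that of 10 tip genes 7012 to 7593 against 8762 to 9433 CPM. The summed level of 4 heat shock genes, Hspa1a, Hspa1b, Hsph1 and Dnajb1, was 45.9 to 51.4 CPM in the control libraries and 74.6 to 78.5 CPM in the others, also without overlap, and the mitochondrial share of UMIs was 13.1 to 13.5% against 12.7 to 14.3%. In T or NK-like cells the lower villus markers were also higher, at 255 to 665 CPM in the control libraries and 825 to 1075 CPM in the others. The part of these in the label differences of enterocyte-like cells was not tested. With gates of 2 times the marker share Idi1 (-0.46), Cyp51 (-0.50) and Fdft1 (-0.33) were called lower, Hmgcs1 was not called (0.05), and Fdps was at -0.21, while Sqle was at 0.88 and Insig1 at -0.41.

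The label difference of Sqle was larger in tip-gene-low cells. There Sqle was at 12.4, 11.9 and 12.8 CPM in the control libraries and at 34.8, 36.7 and 35.1 CPM in those labelled IE-HuR-/-, a log2 fold change of 1.65 (SE 0.0675, edgeR adjusted p = 3.38e-21). In tip-gene-high cells it was at 16.1, 15.6 and 14.2 against 18.9, 21.4 and 21.0 CPM, a log2 fold change of 0.61 (SE 0.0737, edgeR adjusted p = 3.65e-09). The libraries of the labels did not overlap in either range of cells, and the difference between these log2 fold changes was -1.04 (SE 0.0904, edgeR adjusted p = 1.47e-09).

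Sqle was therefore higher in tip-gene-high than in tip-gene-low cells within the control libraries (log2 fold change 0.55, edgeR adjusted p = 1.69e-08) and lower within those labelled IE-HuR-/- (-0.45, adjusted p = 1.08e-08), and over all 6 libraries its value was near 0 (SE 0.208). With gates of 2 times the marker share the difference between the label effects of the tip ranges was -0.46 (edgeR adjusted p = 0.0584). In tip-gene-low cells the lower villus markers summed to 8267 to 9564 CPM in the control libraries and 25398 to 27571 CPM in the others, and their part in this difference was not tested.

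Over the 8 genes, 5 were called in tip-gene-low cells, where 47.4% of 11554 genes were called, and 4 in tip-gene-high cells, where 56.1% of 11348 were. Without TMM the share of all calls that were higher was 27.4% in place of 50.6% in the former and 22.4% in place of 48% in the latter, and 4 and 5 of the 8 genes were called. Besides Sqle, Insig1 was lower in both at -0.68 and -0.58, and Hmgcs1 was higher in both at 0.26 and 0.26. In tip-gene-low cells Fdft1 (0.31) and Fdps (0.20) were higher as well, the latter not without replicate 1, 2 or 3 labelled IE-HuR-/- (0.21, 0.21 and 0.20, adjusted p from 0.0678 to 0.0774) or control replicate 1 (0.10), and the former not without IE-HuR-/- replicate 2 (0.25, adjusted p = 0.0602), when the count was 3. Without TMM Fdft1 (0.19, adjusted p = 0.0974) and Fdps (0.08, 0.358) were not called in tip-gene-low cells, nor Hmgcs1 in tip-gene-high cells (0.06, 0.377), while Idi1 was called lower in both (-0.21 and -0.33, adjusted p = 0.03 and 0.00532) and Lss in tip-gene-high cells (-0.82, 0.0128). Under gates of 2 times the marker share Fdft1 (-0.56), Fdps (-0.25) and Hmgcs1 (-0.11) turned sign in tip-gene-low cells, and Hmgcs1 was not called in tip-gene-high cells (0.08). In tip-gene-high cells Cyp51 was called lower. It was at 30.4, 28.9 and 28.4 CPM in the control libraries and 20.1, 23.1 and 19.1 CPM in the others, which gave -0.29 on the log2 scale (edgeR adjusted p = 0.000536).

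Between the label differences of tip-gene-high and tip-gene-low cells, 2 of 8 genes passed the test of the difference, Sqle and Cyp51, where 21.9% of 12058 genes did. Of all calls, 48.5% were positive, against 26.2% without TMM and 78.2% with DESeq2. That of Cyp51 was -0.44 (SE 0.0866, edgeR adjusted p = 0.000427), -0.24 without replicate 3 labelled IE-HuR-/- (adjusted p = 0.0711), and 0.16 with gates of 2 times the marker share (adjusted p = 0.455).

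In goblet-like cells, which secrete mucus, 6 of 8 genes rose in libraries labelled IE-HuR-/- and 2 did not pass, where 24.9% of 8754 genes were called. The median log2 fold change was 0.38 over the 8 genes and -0.02 over all. Fdps was at 75.0, 94.4 and 105 CPM in the control libraries and at 147, 140 and 142 CPM in the others, without overlap. Its log2 fold change was 0.82 (SE 0.109, edgeR adjusted p = 7.92e-06). Sqle was at 74.7, 68.6 and 79.4 CPM against 108.5, 98.7 and 93.6 CPM, also without overlap, with a log2 fold change of 0.60 (SE 0.0988, edgeR adjusted p = 8.53e-05).

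Hmgcs1 was at 257, 231 and 217 CPM in the goblet-like cells of the control libraries and 323, 239 and 273 CPM in the others, which overlapped, with a log2 difference of 0.41 (edgeR adjusted p = 0.00546). Lss (0.76, edgeR adjusted p = 0.0353), Fdft1 (0.34, 0.0475) and Cyp51 (0.32, 0.0183) were also called, Cyp51 alone of these without overlap, at 89.0, 94.9 and 95.1 against 112.2, 95.8 and 101.9 CPM. Idi1 had 0.29 (adjusted p = 0.0687). Insig1, at 85.2, 65.9 and 65.8 against 60.4, 64.2 and 57.4 CPM without overlap, had -0.09 (adjusted p = 0.61).

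The count in goblet-like cells depended on 2 libraries and on the scaling. Without control replicate 1 it was 3 and without replicate 1 labelled IE-HuR-/- it was 2. Fdft1 was also not called without control replicate 2 (0.39, adjusted p = 0.0763) or replicate 3 labelled IE-HuR-/- (0.26, 0.202), nor Lss without control replicate 3 (0.67, 0.0973). DESeq2 called 3, and without TMM, when 26.3% in place of 56.5% of all calls were higher, Fdps (0.65) and Sqle (0.43) remained called. Fdps and Sqle were called in each of these fits. Enterocyte markers in goblet-like cells summed to 40613 to 43284 CPM in the control libraries and to 25014 to 33934 CPM in those labelled IE-HuR-/-, lower villus markers to 1433 to 2554 against 13071 to 18219 CPM, and the 4 heat shock genes to 45.2 to 47.95 against 56.7 to 59.3 CPM. The mitochondrial share of UMIs was 9.09 to 9.39% against 7.78 to 8.94%. The part of these in the result was not tested.

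**Figure D4:**
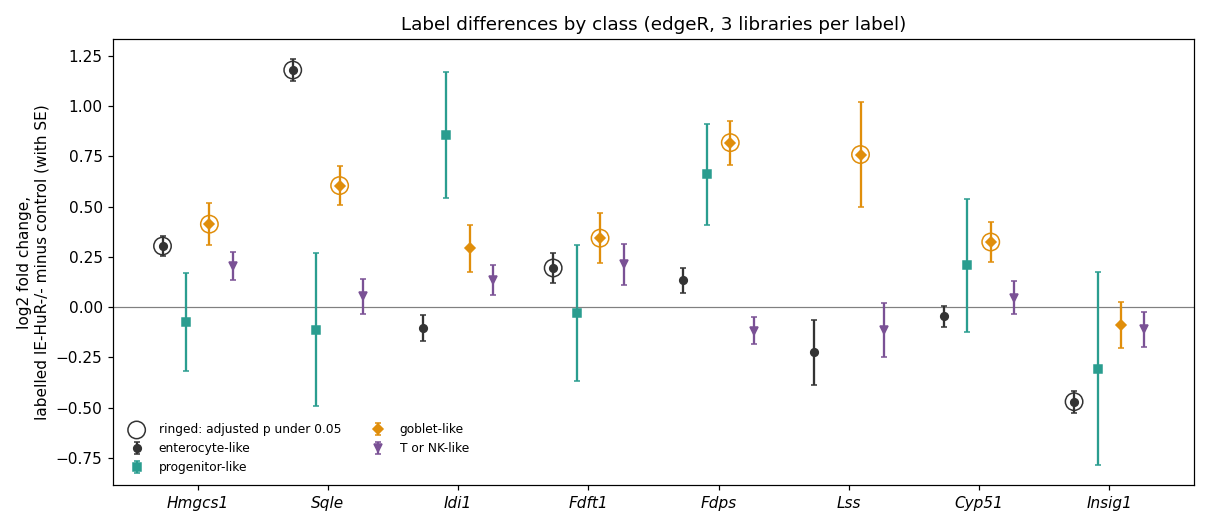
Log2 fold change between the libraries labelled IE-HuR-/- and the control libraries (vertical axis, bars give the SE) for each gene in enterocyte-like, progenitor-like, goblet-like and T or NK-like cells, with calls ringed. Sqle is highest in enterocyte-like cells (1.18), Fdps in goblet-like cells (0.82), and no T or NK-like or progenitor-like value is ringed.

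In progenitor-like cells none of the 7 genes tested was called between the labels by edgeR or DESeq2, where 0.473% of 5495 genes were called, and Lss did not pass the filter on low counts. At an unadjusted edgeR p under 0.05 there were 2, Idi1 and Fdps. The 0.473% counts adjusted calls and is no background for these 2, and the share of all genes at the unadjusted threshold is not given here. Idi1 was at 42.7, 97.8 and 65.0 CPM in the control libraries and at 86.1, 176.3 and 131.2 CPM in the others, with overlap and a log2 difference of 0.86 (SE 0.314, edgeR adjusted p = 0.372). Fdps was at 65.2, 125.3 and 128.2 CPM against 181.9, 178.7 and 167.5 CPM, without overlap, with 0.66 (SE 0.251, edgeR adjusted p = 0.374). The other 5 log2 fold changes were between -0.31 and 0.21. The sums rest on 358173 to 720245 UMIs per library. Their mitochondrial share of UMIs was 9.30 to 11.03% in the control libraries and 3.98 to 8.40% in the others. The stem cell marker Lgr5 was at 18.0 to 30.1 against 2.8 to 7.2 CPM, and the enterocyte marker Fabp1 at 225 to 684 against 958 to 2789 CPM. The mitochondrial share, Lgr5 and Fabp1 did not overlap between the labels. Olfm4, of the same stem cell list as Lgr5, was at 792 to 1820 against 840 to 1337 CPM. The 7 markers of that list summed to 1090 to 2514 against 1120 to 1605 CPM, and both ranges overlapped. The part of these values in the label differences was not tested.

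T or NK-like cells lie outside the villin-Cre lineage. None of the 8 genes was called in them between the labels by edgeR or DESeq2, where 2.34% of 11003 genes were called (62.6% of them higher by edgeR and 45.6% of those by DESeq2), and 1, Hmgcs1, had an unadjusted edgeR p under 0.05. The 2.34% counts adjusted calls and is no background for that unadjusted count. Hmgcs1 was at 139.1, 147.3 and 136.2 CPM in the control libraries and 171.7, 164.3 and 162.3 CPM in the others, with a log2 difference of 0.20 (SE 0.0694, edgeR adjusted p = 0.174) and no overlap, and it was the 1 gene called without control replicate 2. Sqle was at 49.3, 50.4 and 56.9 against 54.5, 57.1 and 53.8 CPM, which overlapped. The 8 log2 fold changes lay between -0.12 and 0.21.

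The difference between the label effects of classes was tested directly. Between goblet-like and enterocyte-like cells, 3 of 8 genes passed, where 8.97% of 12208 genes did. Of all calls, 36.3% were positive, 48.2% without TMM and 51.7% with DESeq2. The effect in goblet-like cells was larger by 0.68 for Fdps (SE 0.108, edgeR adjusted p = 0.000135) and by 0.37 for Cyp51 (SE 0.113, adjusted p = 0.0393), and smaller for Sqle (-0.58, SE 0.113, adjusted p = 0.00151, and -0.42 with adjusted p = 0.0556 under gates of 2 times the marker share). Fdps and Sqle were called without each single library, and Cyp51 was not called without control replicate 1, 2 or 3 (0.32, 0.42 and 0.39) and without replicates 1 or 3 labelled IE-HuR-/- (0.28 and 0.34).

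Between T or NK-like and enterocyte-like cells, 2 of 8 passed, where 10.6% of 14061 genes did, 61.1% of them positive, against 88.1% without TMM and 34.8% with DESeq2. Sqle had -1.10 (SE 0.0934, edgeR adjusted p = 0.000233), and Insig1 0.39 (SE 0.1, adjusted p = 0.037). Insig1 was not called without control replicates 1 or 3 (0.37 and 0.35) or replicates 1, 2 or 3 labelled IE-HuR-/- (0.40, 0.43 and 0.34). Between progenitor-like and enterocyte-like cells, no gene of 8 passed by edgeR or DESeq2, where 0.763% of 12852 genes were called by edgeR (52% of them positive, 73.4% without TMM), and 3 had an unadjusted edgeR p under 0.05. The 0.763% counts adjusted calls and is no background for these 3. The 2 largest of the 3 values were -1.19 for Sqle (SE 0.38, edgeR adjusted p = 0.202) and 1.00 for Idi1 (SE 0.296, adjusted p = 0.121), and both were called without replicate 1 labelled IE-HuR-/-.

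Of 58 tested other genes of sterol and lipid metabolism 32 were called between the labels in enterocyte-like cells, where 58.1% of all 12657 genes tested were. The counts by list thus set these genes little apart. Of 12 other sterol synthesis enzymes 1 was higher and 4 were lower, among them Dhcr7, at 13.5, 12.7 and 13.8 CPM in the control libraries and 9.17, 8.31 and 9.52 CPM in the others (log2 fold change -0.36). Of 9 genes of sterol sensing and SREBP processing 2 were higher and 4 lower. Insig2 was at 62.2, 58.2 and 60.9 CPM against 109.3, 115.1 and 108 CPM, a log2 difference of 1.08 (edgeR adjusted p = 2.38e-18), opposite in direction to Insig1. Of 5 tested other sterol-responsive genes 2 were lower, Tmem97 (-0.67) and Mmab (-0.48), the latter not without replicates 1 (-0.43) or 2 (-0.36) labelled IE-HuR-/-.

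Of 9 tested genes of fatty acid synthesis 3 were higher and 1 lower. Me1, the malic enzyme that supplies NADPH, was at 34.6, 31.5 and 32.3 CPM in the control libraries and 73.9, 75.8 and 75.4 CPM in the others, which gave 1.40 on the log2 scale (edgeR adjusted p = 8.76e-21), and Elovl5, a fatty acid elongase, had -1.05. Of 14 genes of uptake, efflux and esterification 5 were higher, among them Soat2, which esterifies cholesterol, at 0.60 and Mylip at 0.58, and 5 were lower. Of 9 genes of the isoprenoid branch 1, the farnesyltransferase subunit Fntb, was higher at 1.07 and 4 were lower, Coq2 at -0.41. Without TMM, when the median over all genes was lower as given above, the isoprenoid branch had 1 higher and 8 lower and the other sterol synthesis enzymes 0 and 10. The calls were then 1 and 5 for sterol sensing, 0 and 4 for the other sterol-responsive genes, 1 and 3 for fatty acid synthesis and 4 and 6 for uptake, efflux and esterification.

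In goblet-like cells 15 of 54 tested genes of the 6 lists were called, where 24.9% of all 8754 genes tested were. Of 12 other sterol synthesis enzymes 3 were higher, a share near that of all genes, and 9 did not pass. Their median log2 fold change was 0.29, and the 2 largest were Mvd at 0.75 and Nsdhl at 0.53. Mvd was not called without replicate 3 labelled IE-HuR-/- (0.65), and Nsdhl not without that replicate (0.35) or control replicates 1 or 3 (0.49 and 0.50) or without TMM (0.36), when 1 of the 12 enzymes was higher and 2 were lower. Insig2 (0.87), Me1 (1.15) and Fntb (1.01) were higher in goblet-like as in enterocyte-like cells. Of 14 genes of uptake, efflux and esterification 1 was higher and 5 were lower, namely Abcg1 at 1.21 and, by the most, Abca1, the cholesterol exporter, at -1.01, from 43.1, 53.4 and 34.7 CPM in the control libraries to 15.1, 24.8 and 19.2 CPM in the others. In progenitor-like cells none of 34 tested genes of the 6 lists was called by edgeR or DESeq2, and 2 had an unadjusted edgeR p under 0.05, while in T or NK-like cells 1 of 57, Abca1 at -1.25, was called. Over all genes 0.473% and 2.34% were called after adjustment in these 2 classes, which is no background for the unadjusted count.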

How the data were processed

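Small intestinal mucosa was dissociated to single cells with EDTA and enzyme and sequenced by droplet capture, 1 library per mouse. Per the labels and submitters' processing notes, the authors made the deposited UMI counts per gene and cell with CellRanger 6.1.2 against mm10; the labels name a 5' kit, whereas the study's methods name a 3' kit, an earlier CellRanger and a human reference, which would not give the mouse genes in the files. The counts were used as deposited.

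Cells with at least 200 genes were kept. Cells were gated on marker genes, an enterocyte-like cell having at least 10 of 15 markers and 4% of UMIs from them, and a progenitor-like cell at least 4 of 25 cycling markers, 0.2% of UMIs, 2 epithelial markers and at most 0.5% T or NK marker UMIs. Cells passing more than 1 gate were dropped and no doublet caller was run. Goblet-like cells of the control libraries still held 40613 to 43284 CPM of enterocyte markers. That is above the 4% share of the enterocyte gate, so cells with such a share were kept in the goblet-like class. Gate thresholds were set after looking at the data, and 14 of 242 progenitor-like cells lay within 25% of the gate. UMIs were summed per library and class, and sums were tested with edgeR 4.0.16 in R 4.3.3 (filterByExpr at 10 counts and 15 in total, TMM, quasi-likelihood test, two-sided, Benjamini-Hochberg over all genes tested, called under 0.05), with the library as a term where classes were compared. DESeq2 1.42.0 was an alternative. On simulated counts with 200 genes changed by a log2 of 2, false calls were 15.8% of calls for progenitor-like against enterocyte-like cells (171 of 190 changed genes called), 11.7% for T or NK-like (196 of 200), 8.37% for enterocyte-like (197 of 199), 8.29% for goblet-like (199 of 200) and 3.09% for progenitor-like labels (188 of 195), 7.98% for tip ranges (196 of 197) and 8.16% for the progenitor interaction (90 of 197), most of them above the 5% that the threshold is set for. The changed genes went up and down in equal number, so the simulation cannot show how TMM scaling does where most genes differ. It was not run for the tuft-like comparison or for label differences within tip ranges. Nor was it run for the goblet-like, T or NK-like and tip-range interactions.

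The members and lists were chosen with earlier results of these data known. Genes named were the members, the pathway genes with the largest 2 changes per list among those called, and the 10 most alike genes, of which 1 is not reported here. The tuft-like, goblet and T or NK interaction and tip-range comparisons were added after seeing the data. Same-numbered libraries did not deviate together (correlations of deviations -0.216 to 0.0595), so no pairing was used. Libraries with the same label differed by more than sampling noise (chi-square per degree of freedom 5.497 to 15.65), and each is 1 mouse. Precision is limited by UMIs per sum, from 198594 in tuft-like to 64842727 in enterocyte-like cells, and Poisson intervals cover counting error only.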

Additional observations from a re-analysis of the deposited data

Results flagged for a closer look

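In 7 cases the main edgeR interaction test over all genes called the difference between the labels as unlike in a pair of cell classes. Between goblet-like and enterocyte-like cells the log2 label effects differed by 0.68 for Fdps (edgeR adjusted p = 0.000135), by 0.37 for Cyp51 (adjusted p = 0.0393) and by -0.58 for Sqle (adjusted p = 0.00151). Between T or NK-like and enterocyte-like cells they differed by 0.39 for Insig1 (edgeR adjusted p = 0.037) and by -1.10 for Sqle (adjusted p = 0.000233). Between tip-gene-high and tip-gene-low enterocyte-like cells they differed by -1.04 for Sqle (edgeR adjusted p = 1.47e-09) and by -0.44 for Cyp51 (adjusted p = 0.000427). No group holds 4 or more libraries, so no single library was tested as an outlier.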

How the results depend on the processing

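Of 189 counts of the 8 genes called under alternatives, 161 stayed within 1.5 times the value reported and 28 did not. Without TMM the count was 8 for progenitor-like against enterocyte-like cells, 2 for the label in goblet-like cells, and 1 and 4 for the differences of label effects between progenitor-like and enterocyte-like and between tip ranges. With gates of 2 times the marker share these were 8, 3 and 1, with 4 for T or NK-like against enterocyte-like label effects. Without the 5% of cells with the most UMIs the counts were 3 for goblet-like and 1 for T or NK-like label differences and 4 between tip ranges. Thinning to the lowest total gave 3 for goblet-like cells and 1 for the goblet-like and 1 for the T or NK-like interaction, DESeq2 gave 3 for goblet-like cells, the fit without the library as a term 5 for the goblet-like interaction, and a stricter cell filter (500 genes or more, mitochondrial UMIs up to 25%) 1 for the T or NK-like interaction. Leaving out 1 library gave 2 to 6 for goblet-like, 0 to 1 for T or NK-like and 3 to 5 for tip-gene-low label differences, and 0 to 2, 2 to 4, 1 to 3 and 1 to 3 for the interactions of progenitor-like, goblet-like, T or NK-like and tip ranges.

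Some values turned sign. Hmgcs1 between progenitor-like and enterocyte-like cells was at -0.08 with no filter on low counts, -0.12 in the libraries labelled IE-HuR-/- alone, and -0.03 to 0.20 with 1 library left out, and Sqle at -0.40 in the libraries labelled IE-HuR-/-. Between tip ranges Sqle was at 0.04 with DESeq2, 0.11 with 500 genes and 25%, 0.43 with gates of 2 times the share, 0.02 without the top 5% of cells, 0.55 in control libraries, and -0.16 to 0.10 with 1 library left out. For the label in enterocyte-like cells Fdft1 was at -0.01 without TMM and -0.33 with the stricter gates, and Fdps at -0.07 and -0.21. With those gates Fdps, Hmgcs1 and Fdft1 were at -0.25, -0.11 and -0.56 in tip-gene-low cells, and the Cyp51 difference between tip ranges at 0.16. Insig1 in goblet-like cells was at -0.16 to 0.04 with 1 library left out. The cause was not tested.

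With replicate numbers as a block, which the correlations gave no reason to read as pairs, the counts were 5 in enterocyte-like, 6 in goblet-like, 0 in progenitor-like, 0 in T or NK-like, 5 in tip-gene-low and 4 in tip-gene-high cells.

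Over all genes, calls ranged from 3583 (thinned) to 9612 against 8694 for progenitor-like, 2053 (thinned) to 7651 against 6983 for tuft-like cells, 11 to 204 against 26 for progenitor-like and 64 to 787 against 257 for T or NK-like labels. For the interactions they ranged from 3 to 227 against 98, 443 to 1464 against 1095, 302 to 2457 against 1490 and 1439 to 2970 against 2645. Progenitor-like sums had the fewest UMIs of the sums compared between labels.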
